A study of Mus musculus with 45 samples.

Results

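The genes described here are the mouse ATP-binding cassette (ABC) transporter genes, apart from 5 of those of the bile canaliculus. The measurement is where the clock repressor REV-ERBα was bound near them in liver chromatin. Members were all protein-coding genes whose symbol joins Abc, a subfamily letter from a to g and a number. Only 5 genes of canalicular exporters were left out, Abcb11, Abcb4, Abcc2, Abcg5 and Abcg8. This rule gave 45 of the 50 genes with such symbols, among 21631 protein-coding genes (Y left out) of RefSeq on GRCm38.p6, a build that numbers its bases as mm10 does. The members comprised 16 ABCA, 8 ABCB, 9 ABCC, 4 ABCD, 1 ABCE, 3 ABCF and 4 ABCG genes. The rule itself reads symbols alone and no measured value.

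Chromatin immunoprecipitation with sequencing was done on livers of REV-ERBa3HA/3HA knock-in mice, whose own REV-ERBα carries a 3HA epitope tag, with anti-HA magnetic beads and without any viral vector. The 4 samples taken at zeitgeber time 10 (ZT10) and the 4 taken at ZT22 differed by the labels only in the hour of the light cycle, and the age, sex and strain of the mice are not given in the sources used here. For each time the authors merged its 4 samples into 1 list of peaks, so no value below has a spread between replicates and no p-value was computed. The other samples of the series (45 in 18 groups in all) were not analysed here. Tissue was whole liver, so a site cannot be placed in one cell type. A ZT10 site lay at 10 of 10 hepatocyte marker genes, 2 of 6 Kupffer cell, 3 of 5 endothelial, 2 of 5 stellate and 2 of 5 cholangiocyte markers. The share over all protein-coding genes was 54.5%, and the part of these cells in the results was not tested. The ZT10 list held 27929 peaks and the ZT22 list 36, from pools of about equal depth (a ratio of 0.97, ZT22 over ZT10, provided that 1 control was used for the 2 lists).

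ABC proteins bind and hydrolyse ATP, and most use that energy to move a substrate across a membrane. The ABCA, ABCB, ABCC, ABCD and ABCG subfamilies hold membrane transporters for lipids, sterols, drugs, conjugates, peptides, heme precursors and fatty acids, while ABCE and ABCF proteins have no membrane domain and work with ribosomes. REV-ERBα is a nuclear receptor that lacks an activation helix, recruits the NCOR1 and HDAC3 corepressor complex, and is abundant in liver in the later part of the light phase.

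REV-ERBα was bound near most ABC genes at ZT10, and no ABC gene had a listed site at ZT22. A gene was given a site where the summit of a peak lay inside its span or within 10 kb of it. At ZT10, 32 of 45 members (71.1%) had a site, where 54.5% of all protein-coding genes did. A site of at least 10-fold over the local background, the ratio that the authors' peak caller gave each peak, lay at 13 members (28.9%), beside 19.1% of all genes. At ZT22, 0 of 45 members had a site, and the share over all genes was 0.0693%, or 15 genes.

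Member sites were close in strength to the list as a whole. The members held 100 distinct ZT10 sites, or 106 when the 6 sites shared by neighbouring members count for each. Their median fold was 6.14, beside 6.81 over all ZT10 peaks, and 22 of the 100 (22%) reached a fold of 10, beside 26.98% of all peaks. Peaks were 200 to 12800 bp wide with a median of 1628 bp, and the median over all ZT10 peaks was 1679 bp. Summits held 83 to 598 fragments (median 138.5), a number solved for each peak from its deposited fold and −log10 p. The strongest site of the 32 members with one had a median fold of 8.33 (quartiles 5.58 and 14.9, range 4.28 to 27.7), beside 7.82 over all genes with a site.

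**Figure D1:**
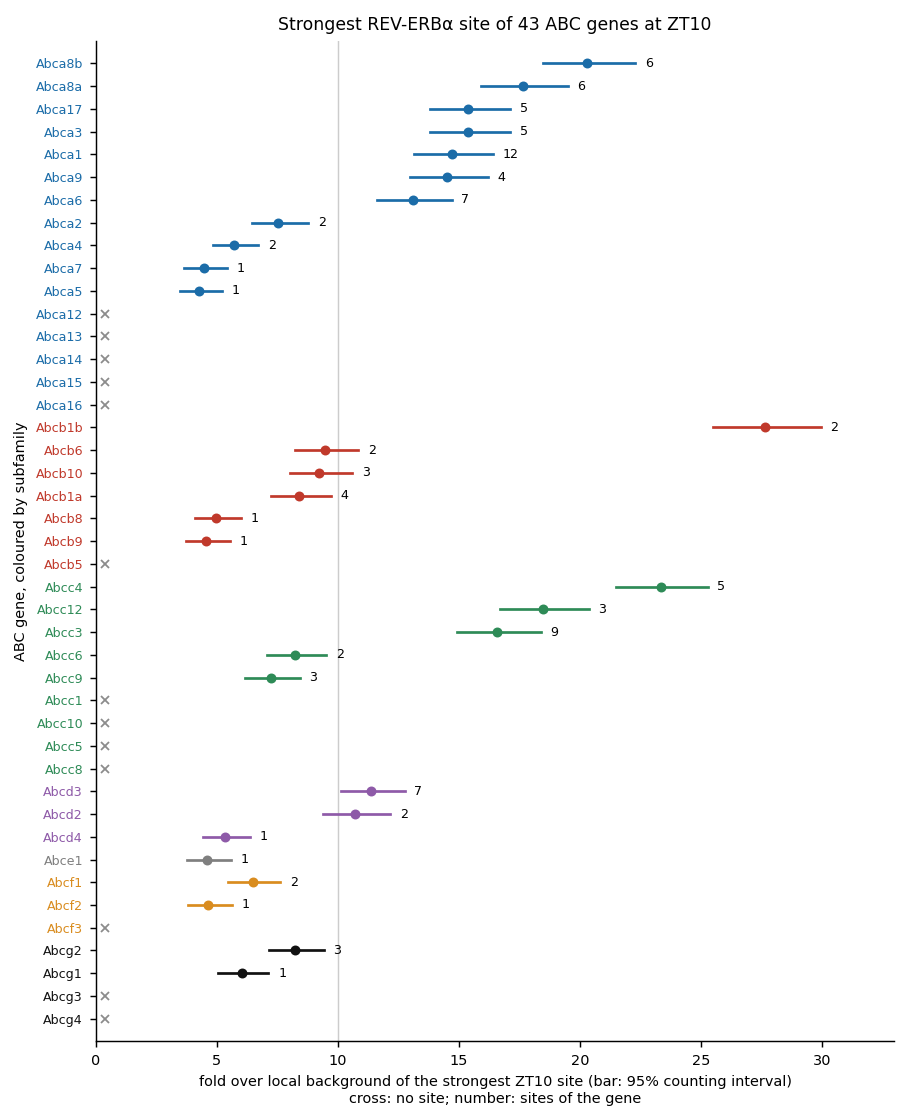
Fold over the local background of the strongest ZT10 site of 43 of the 45 ABC genes, grouped and coloured by subfamily. Points are the deposited folds, bars their 95% counting intervals, crosses genes with no site and the numbers at the right the sites of each gene. Abcb1b (27.7) stands to the right of every other gene, 7 ABCA genes lie past the grey line at a fold of 10, and no ABCE, ABCF or ABCG gene does.

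Subfamilies differed in how many of their genes were bound and how strongly. In the ABCA subfamily 11 of 16 genes had a site and 7 of them one of at least 10-fold. Those 7 are not independent. Abca3 and Abca17 shared their strongest site (15.4), and the strongest site of Abca9 (14.5) lay inside Abca8a. The ABCB subfamily had sites at 7 of 8 genes, with 1 past 10-fold, and the ABCC subfamily at 5 of 9, with 3 past it. All 4 ABCD genes had a site and 2 passed 10-fold. The single ABCE gene, 2 of 3 ABCF genes and 2 of 4 ABCG genes had sites below it. The median strongest fold of genes with a site was 16.6 in ABCC, 14.5 in ABCA, 8.42 in ABCB, 8.03 in ABCD, 7.13 in ABCG, 5.57 in ABCF and 4.60 in ABCE. Over all protein-coding genes, 54.5% had a site and 19.1% one of at least 10-fold. These are the shares to set beside the counts here and in the groups by function below. The groups hold few genes, and their differences were not tested.

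Long genes take in more summits, so the members were also set beside genes of like span. The median member spanned 67.5 kb and the median protein-coding gene 17.3 kb. Among members under 30 kb, 9 of 12 had a site (75%, beside 48.7% of all such genes), but 0 of 12 had one of 10-fold, beside 14.8%. Among members of 30 to 100 kb, 16 of 21 had a site (76.2%, beside 65.7%) and 11 of 21 one of 10-fold (52.4%, beside 24.5%). Among members over 100 kb, 7 of 12 had a site (58.3%, beside 65.0%) and 2 of 12 one of 10-fold (16.7%, beside 32.7%). Strong sites therefore lay mostly at members of middle length, and neither the shortest nor the longest members exceeded the share of their span class in strong sites. Per 100 kb of span and reach, members held 2.33 sites and all genes 1.93.

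**Figure D2:**
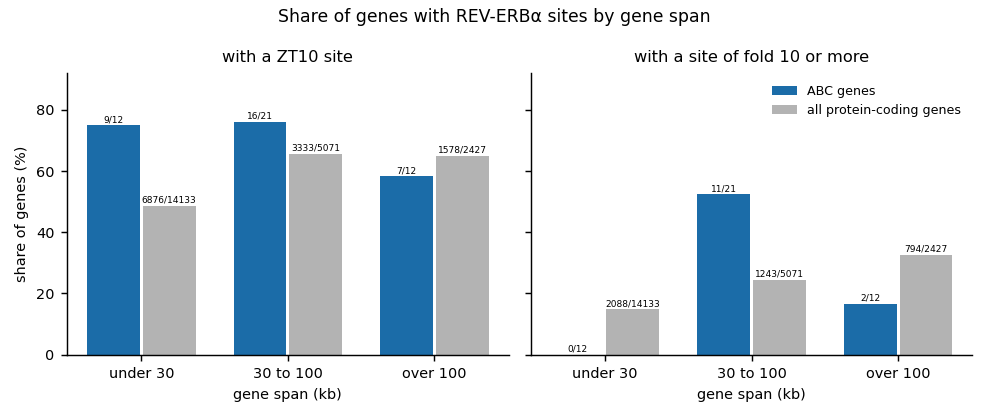
Share of genes (%) with a ZT10 site (left) and with a site of at least 10-fold (right), by gene span in kb, for ABC genes (blue) and all protein-coding genes (grey). Bars carry the number of genes with a site over the number in the class. The tallest contrast in the right panel is the class of 30 to 100 kb, at 11 of 21 ABC genes, some of which are neighbours that share a site.

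Promoter sequence was available from RefSeq (GRCm38.p6) for 33 of the 45 members, and is shown for 8 of them: the 5 with an entry among the 6 members of strongest fold, Abca1, which had the most sites, and Abcg2 and Abcb6, whose windows under a peak hold the receptor hexamer. Each line gives bases upstream of a listed start, 5′ to 3′ on the strand of the gene. Matches to the receptor hexamer AGGTCA or to the E-box CACGTG, on either strand, are in capitals. Peaks lay over the windows of Abcc4, Abca8b, Abca8a, Abca1, Abcg2 and Abcb6, and no peak lay over those of Abcb1b and Abcc12. The windows are chr14:118706220-118706469 (minus strand) for Abcc4, chr11:109995846-109996095 (minus) for Abca8b, chr11:110095938-110096187 (minus) for Abca8a, chr4:53159989-53160145 (minus) for Abca1, chr6:58640296-58640545 (plus) for Abcg2, chr1:75180393-75180642 (minus) for Abcb6, chr5:8797897-8798146 (plus) for Abcb1b and chr8:86566591-86566840 (minus) for Abcc12. The RefSeq spans of Abcc4, Abca8b, Abca8a, Abcg2 and Abcc12 run past these starts, so their windows lie inside the gene. The span of Abca1 also runs past its start, at base 53159895, to base 53159988. For Abca1 only the 157 bases outside the span are printed, so its line ends short of the start.
Abcc4: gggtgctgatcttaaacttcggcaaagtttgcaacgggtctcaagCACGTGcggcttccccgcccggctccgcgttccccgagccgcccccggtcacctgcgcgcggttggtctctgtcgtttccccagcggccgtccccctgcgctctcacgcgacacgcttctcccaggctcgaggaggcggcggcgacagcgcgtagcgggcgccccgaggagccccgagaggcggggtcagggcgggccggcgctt
Abca8b: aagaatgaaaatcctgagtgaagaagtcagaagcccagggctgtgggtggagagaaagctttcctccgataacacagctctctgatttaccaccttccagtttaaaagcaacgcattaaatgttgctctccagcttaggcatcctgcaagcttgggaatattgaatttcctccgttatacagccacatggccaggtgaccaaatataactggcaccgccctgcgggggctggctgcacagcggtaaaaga
Abca8a: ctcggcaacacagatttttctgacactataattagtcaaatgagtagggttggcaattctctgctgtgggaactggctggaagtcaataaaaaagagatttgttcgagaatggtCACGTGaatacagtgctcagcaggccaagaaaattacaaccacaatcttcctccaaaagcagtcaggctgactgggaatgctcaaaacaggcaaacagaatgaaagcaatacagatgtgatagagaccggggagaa
Abca1: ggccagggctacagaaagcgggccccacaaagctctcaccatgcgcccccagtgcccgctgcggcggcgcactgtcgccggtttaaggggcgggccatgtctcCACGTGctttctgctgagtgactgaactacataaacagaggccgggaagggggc
Abcg2: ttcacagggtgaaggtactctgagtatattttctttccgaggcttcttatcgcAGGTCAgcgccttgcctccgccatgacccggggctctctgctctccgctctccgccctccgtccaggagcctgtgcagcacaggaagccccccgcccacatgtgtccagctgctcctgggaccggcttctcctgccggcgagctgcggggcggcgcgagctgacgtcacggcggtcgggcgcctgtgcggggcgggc
Abcb6: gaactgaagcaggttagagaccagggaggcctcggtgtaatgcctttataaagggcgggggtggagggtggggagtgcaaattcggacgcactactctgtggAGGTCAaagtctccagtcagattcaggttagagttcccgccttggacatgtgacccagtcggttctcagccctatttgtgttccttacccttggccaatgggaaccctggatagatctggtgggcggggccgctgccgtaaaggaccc
Abcb1b: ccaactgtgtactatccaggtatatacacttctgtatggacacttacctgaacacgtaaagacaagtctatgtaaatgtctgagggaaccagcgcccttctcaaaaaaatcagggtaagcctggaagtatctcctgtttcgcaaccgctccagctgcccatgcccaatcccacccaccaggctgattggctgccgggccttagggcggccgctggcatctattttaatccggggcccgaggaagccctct
Abcc12: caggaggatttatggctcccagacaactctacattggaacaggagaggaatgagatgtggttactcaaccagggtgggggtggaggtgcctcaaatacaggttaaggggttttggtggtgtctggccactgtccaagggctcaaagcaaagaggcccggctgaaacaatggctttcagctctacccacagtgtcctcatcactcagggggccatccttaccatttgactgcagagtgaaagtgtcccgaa

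REV-ERBα is known to bind AGGTCA behind an A/T-rich stretch (the ROR response element) or as a direct repeat spaced by a pair of bases (RevDR2). Over the 300 bases from 250 before to 50 after a start, AGGTCA was found on either strand in 5 of 39 member windows (12.8%), beside 14.6% of all 21045 windows. Those 5 belonged to Abcb6, Abcc10 and Abcg2. A peak lay over the Abcb6 window and the Abcg2 window shown above. No peak lay over the Abcc10 windows or over the other Abcg2 window with the hexamer. In Abcb6 the hexamer began 148 bases before the start, and in the Abcg2 window shown above 197 bases before it. Neither the ROR response element, searched as AANTAGGTCA, nor RevDR2, searched as 2 hexamers spaced by 2 bases, was found in any of the 39, and over all windows their shares were 0.157% and 0%. Direct repeats spaced by 1 or 4 bases were likewise found in 0 of 39 windows, with shares of 0.0475% and 0% overall. CACGTG, the E-box that CLOCK and BMAL1 bind, was found in 6 of 39 (15.4%), beside 7.91%. In the windows shown, it began 205 bases before the Abcc4 start, 147 before that of Abca1 and 136 before that of Abca8a, and in Abca8b it lay 18 bases after the start, beyond the bases printed. The windows of Abca15 and Abcf1 also held it. These are matches of letters in a window, and sequence at the distant summits was not used here.

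Among genes that export drugs and conjugates, 6 of 9 had a site (66.7%, beside 54.5% of all genes). A site of at least 10-fold lay at 3 of them (33.3%, beside 19.1%). Abcb1b, which with Abcb1a encodes mouse P-glycoprotein, the multidrug exporter, had the strongest site of all members. Its peak at chr5:8871625-8874878 held 598 fragments, a fold of 27.7 (95% counting interval 25.5 to 29.96, from an exact Poisson interval, as for every fold interval here), and ranked 348 among the 27929 ZT10 peaks. The summit lay 7266 bp beyond the far end of the gene and 75433 bp from its start, with the next gene, the phospholipid exporter Abcb4, 20034 bp away. Inside the span of Abcb1b there was 1 site, at a fold of 9.20, and the start shown above had no peak. Its tandem neighbour Abcb1a had 4 sites, all within its span of 181 kb, the strongest at a fold of 8.42 (7.26 to 9.71) and 92910 bp from the start. The counting intervals of the strongest sites of these 2 genes did not overlap.

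Abcc4, the MRP4 exporter of cyclic nucleotides and bile acid conjugates at the sinusoidal membrane, carried the next strongest sites. One peak covered 12074 bp at chr14:118705512-118717585, over the outer listed start whose sequence is given above. Its summit held 589 fragments at a fold of 23.3 (21.5 to 25.3) and lay 8580 bp upstream of that start. Another of nearly equal strength, with a fold of 23.2 (21.2 to 25.3), lay inside the gene, 9162 bp downstream of the inner start, and the third had a fold of 12.7 and lay 2030 bp downstream of it. The remaining 2 sites had folds of 8.78 and 4.60. The fold intervals of the strongest pair overlapped, and the order of the pair was not tested. In fragments the pair held 589 and 500.

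Abcc3, the MRP3 exporter of glucuronides to blood, had 9 sites over 60.3 kb, the most of any ABCC gene. The strongest, at chr11:94387424-94393576, had a fold of 16.6 (14.9 to 18.4), and others inside the gene had folds of 16.1 and 14.1. The other 6 lay between 4.05 and 8.51, the strongest of them over the neighbouring gene Ankrd40. Abcg2, the breast cancer resistance protein gene, had 3 sites, all inside its span, the strongest at a fold of 8.23 (7.17 to 9.41) and 203 bp downstream of a listed start. Abcc6, whose product in liver releases ATP and protects against ectopic calcification, had folds of 8.23 and 6.12, the stronger 321 bp from one end of the gene. No site was found at Abcc1, Abcc5 or Abcc10, exporters with broad expression, and the summits nearest to them lay 44.0, 72.6 and 55.1 kb away.

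**Figure D3:**
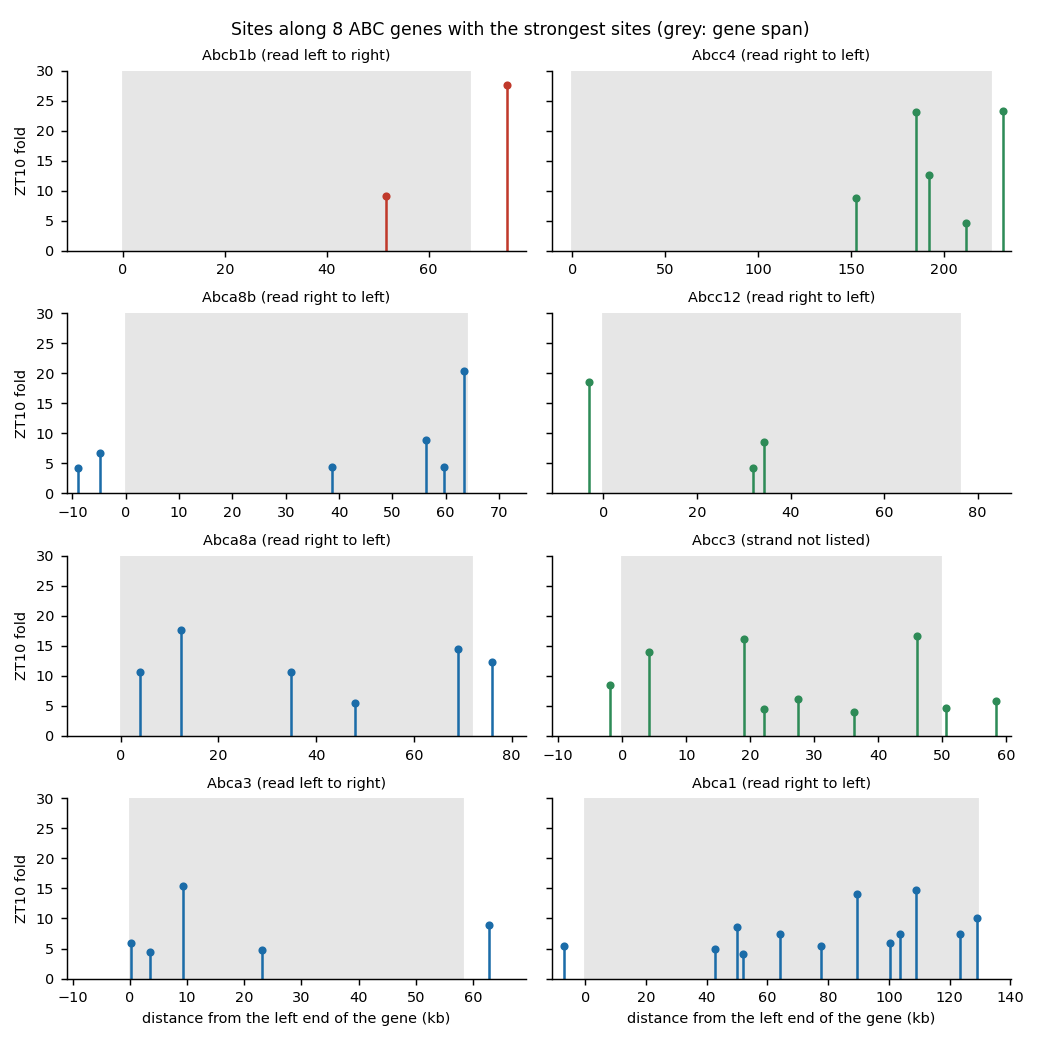
Position (kb from the left end of the gene) and fold of every ZT10 site within 10 kb of 8 strongly bound ABC genes. Stems are summits, grey the gene span, and each title gives the direction of reading where a start is listed. The strongest sites of Abcb1b and Abcc12 stand outside the far end of the gene, that of Abca8b at its start, and those of Abca1 and Abcc3 are spread along the span.

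Among sterol and phospholipid exporters, sites lay at 3 of 4 genes and concentrated on 1 of them. Abca1, which loads cholesterol and phospholipid onto apolipoprotein A-I to form nascent high-density lipoprotein, had 12 sites over 136 kb, the most of any member. By number of sites it ranked 89 among all 21631 genes, a rank not matched for its span of 129 kb. Some Abca1 peaks nearly adjoined, as at chr4:53137241-53150040, chr4:53150297-53156941 and chr4:53157104-53160571. Its strongest peaks were 12800 and 12355 bp wide, with folds of 14.7 (13.2 to 16.4) at chr4:53137241-53150040 and 14.2 (12.6 to 15.8) at chr4:53114072-53126426, 20264 and 39524 bp downstream of the start. Another peak, with a fold of 10.2 (8.88 to 11.6), had its summit 30 bp from the start and covered the sequence shown above. The other 9 sites had folds of 4.14 to 8.55, and 11 of the 12 lay inside the gene.

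The remaining sterol exporters were weakly bound or had no site. Abcg1, which passes cholesterol to high-density lipoprotein, had 1 site inside its span at a fold of 6.03 (5.06 to 7.14). Abca7, a phospholipid transporter related to Abca1, had 1 site, 344 bp downstream of its start, at 4.47 (3.64 to 5.43). Abcg4, expressed chiefly in brain, had none within its reach, and the nearest summit was 17.04 kb away.

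The ABCA genes that adjoin one another on chromosome 11, a group of lipid transporters of the Abca6 type, all had sites, and 4 of the 5 had one of at least 10-fold. Abca8b, linked to cholesterol efflux and high-density lipoprotein, had the strongest, a peak at chr11:109992881-109996747 with 438 fragments and a fold of 20.3 (18.5 to 22.3). Its summit lay 263 bp downstream of the listed start, within the gene, and 5 more sites had folds of 4.24 to 8.88. Abca8a had 6 sites, 5 of them past 10-fold, led by one of 17.6 (15.9 to 19.5) at chr11:110036804-110040193, 57881 bp downstream of its start. The peak over its own start had a fold of 14.5, with the summit 1315 bp downstream, and it also lay within reach of Abca9.

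Abca9 took its strongest value from that site inside Abca8a (14.5), and shared a further one of 12.4 with Abca8a, which lay in its own span. Within its span alone, therefore, the strongest fold of Abca9 was 12.4. Abca6 had 7 sites, the strongest at a fold of 13.1 (11.6 to 14.7) and 313 bp outside the gene, and the strongest within its span reached 7.13. Abca5 had a single site, 991 bp outside its span, at 4.28 (3.48 to 5.23). Abca8a to Abca5 covered 312 kb and held 15 distinct sites, 6 of them past 10-fold. Between Abca8b and Abca8a, 15.04 and 14.3 kb from them and so outside the reach of both, stood a peak stronger than any of theirs, at chr11:110009912-110013120 with a fold of 25.1.

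**Figure D4:**
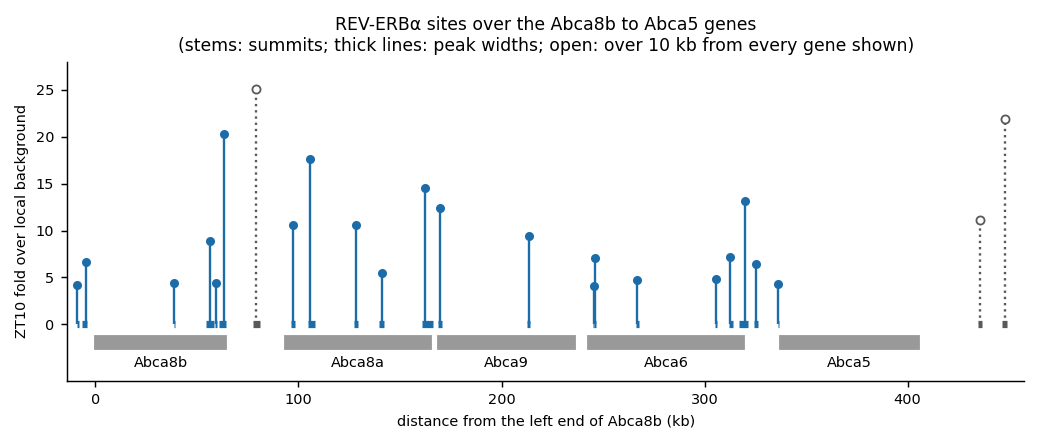
Fold of ZT10 sites along the 5 adjoining ABCA genes on chromosome 11, against distance in kb from the left end of Abca8b. Filled points are summits within 10 kb of a gene, open points summits farther away, thick lines at 0 the widths of the peaks and grey bars the gene spans. Sites past 10-fold cluster from the start of Abca8b through Abca8a to the near end of Abca9, and Abca5 has no summit inside its span.

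The other ABCA transporters known for lung, skin, retina and testis varied more. Abca3, which loads surfactant lipid in lung, and its neighbour Abca17, a rodent gene read in the opposite direction, shared 3 sites. The strongest, at chr17:24358834-24366495, had a fold of 15.4 (13.8 to 17.1), and lay inside Abca3, 9169 bp downstream of its start, and 9134 bp outside Abca17. A weaker shared peak of 5.89 lay over the promoter windows of both genes, with its summit 119 bp downstream of the Abca3 start and 1083 bp upstream of the Abca17 start. Abca17 had 1 site inside its span, at 5.20, and 1 at 12.4 beyond its far end, which also lay within reach of the gene Ccnf (7950 bp). The site of 15.4 was within reach of both Abca3 and Abca17, and cannot be assigned to one of them. Inside its own span Abca17 had a strongest fold of 5.20.

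Abca2, a lysosomal lipid transporter best known in brain, had folds of 7.54 outside its span and 5.75 at 321 bp downstream of its start. Abca4, the retinal transporter, had 2 sites inside its span at 5.71 and 4.01. Abca12, the keratinocyte lipid transporter, had none, and the nearest summit was 11.5 kb away. Abca13, the member of longest span (493 kb), had none. Abca14, Abca15 and Abca16, 3 adjoining genes known from testis, covered 341 kb with 0 sites.

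All 4 transporters of the mitochondrial, heme and iron-sulphur group had a site, and none reached 10-fold. Abcb6, a porphyrin transporter, had its strongest site (9.47, 8.24 to 10.8) over the neighbouring gene Zfand2b, 2740 bp outside its span, and another of 7.64 whose summit lay 341 bp downstream of its start. Abcb10, of the inner mitochondrial membrane and needed for heme synthesis, had 3 sites: 9.24 (8.02 to 10.6) inside the gene, 6.63 with the summit 36 bp upstream of the start, and 6.17 beyond the far end. Abcb8, tied to mitochondrial iron, had 1 site of 4.97, 922 bp from one end of its span. Abcb6, Abcb10 and Abcb8 thus each had a site under 10-fold within 1 kb of an end of the gene.

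Peroxisomal and lysosomal transporters also all had a site, 5 of 5 with 2 past 10-fold. Abcd3, the peroxisomal membrane protein that admits branched-chain fatty acids and bile acid intermediates, had 7 sites. Its strongest, at chr3:121809086-121816554, covered 7469 bp over the start, with the summit 205 bp downstream and a fold of 11.4 (10.1 to 12.8), while the other 6 had folds of 4.26 to 6.76. Abcd2, a very long-chain fatty acid transporter, had a site of 10.7 (9.39 to 12.2) 407 bp from one end of its span and another of 5.03. Abcd4, a lysosomal vitamin B12 transporter, had 1 of 5.34 just outside its span (236 bp). Abcb9, a lysosomal peptide transporter, had 1 of 4.56 inside its span. The counting intervals of Abcd3 and Abcd2 did not overlap those of Abcd4 and Abcb9.

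The ABCE and ABCF genes, which act in ribosome recycling and translation, had short spans and weak sites close to their starts. Abce1, which splits ribosomes after termination, had 1 site of 4.60 (3.77 to 5.58), 10 bp from its start. Abcf2 had 1 of 4.65 (3.81 to 5.63), 24 bp from a start. Abcf1, which takes part in translation initiation, had 5.89 at 233 bp upstream of its start and 6.49 at 9878 bp outside its span, over the gene Prr3. Abcf3 had no site, and the nearest summit was 12.7 kb away. The summit at Abce1 lay 6 bp from the span of another gene as well, and cannot be given to one of them.

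Of the sulfonylurea receptors, which regulate ATP-sensitive potassium channels, Abcc9 had 3 sites inside its span, at 7.22 (6.15 to 8.43), 6.72 and 4.88, and Abcc8 had none. Abcc12, the MRP9 gene, whose substrates are not well known, had a strong site at chr8:86499926-86502593, with 398 fragments and a fold of 18.5 (16.7 to 20.4). Its summit lay 3162 bp beyond the far end of the gene and 65184 bp from its start. Sites inside Abcc12 had folds of 8.51 and 4.28, so the strong value rests on reach beyond the span. Beyond the reach of Abcc12 stood further strong peaks, at 12.8 (10.4 kb from the span) and 17.6 (13.9 kb from it). Abcb5 and Abcg3, a rodent gene, had no site.

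The number of sites varied as widely as their strength. The 13 members with no site were Abca12, Abca13, Abca14, Abca15, Abca16, Abcb5, Abcc1, Abcc5, Abcc8, Abcc10, Abcf3, Abcg3 and Abcg4. A single site lay at 10 members, none of them past a fold of 6.03. At least 5 sites lay at 9 members (20%, beside 5.56% of all genes): Abca1, Abcc3, Abca6, Abcd3, Abca8a, Abca8b, Abca3, Abca17 and Abcc4. By span, these were 0 of 12 members under 30 kb (beside 1.08% of all such genes), 7 of 21 of 30 to 100 kb (33.3%, beside 8.97%) and 2 of 12 over 100 kb (16.7%, beside 24.6%). The counts of Abca6, Abca8a, Abca3 and Abca17 include sites shared with a neighbouring member. At least 10 lay only at Abca1, beside 0.985% of all genes. Where a member had several sites, the strongest exceeded the next by 3.01 times at Abcb1b, 2.29 times at Abca8b and 2.171 times at Abcc12, but by only 1.01 times at Abcc4, 1.03 times at Abcc3 and 1.04 times at Abca1. At Abcd2 this ratio was 2.13. Within the reach of 10 kb, the strongest site thus stood well above the next at Abcb1b, Abca8b, Abcc12 and Abcd2, and the strongest pair was nearly equal at Abcc4, Abcc3 and Abca1.

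Starts of ABC genes were bound about as often as those of other genes. A summit lay within 1 kb of a listed start at 12 of 33 members (36.4%), beside 34.5% of 17274 genes, and within 10 kb at 16 (48.5%), beside 47.2%. Those 12 were, from the nearest, Abce1, Abcf2, Abca1, Abcb10, Abca3, Abcg2, Abcd3, Abcf1, Abca8b, Abca2, Abcb6 and Abca7. A ZT10 peak covered 17 of 39 promoter windows (43.6%), beside 38.4% of all windows. Of the 23 members with both a start and a site, the strongest site lay within 1 kb of the start at 6 (Abca7, Abca8b, Abcd3, Abce1, Abcf2 and Abcg2) and beyond 10 kb at 13.

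The median fold differed little between sites at starts and sites elsewhere, a difference that was not tested. Those within 1 kb of a start numbered 12, with a median fold of 6.26 and 3 past 10-fold. Those at 1 to 10 kb numbered 17, with a median of 7.50 and 6 past 10-fold, and those beyond 10 kb 52, with a median of 6.42 and 11 past it. A site shared by neighbouring members counts for each of them here. The strongest site of a member lay inside its span at 21 of 32 members and outside at 11, and in 4 cases it lay over the span of another gene. Another protein-coding gene lay within 10 kb of the strongest summit at 13 members, so those sites cannot be assigned to the ABC gene alone.

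**Figure D5:**
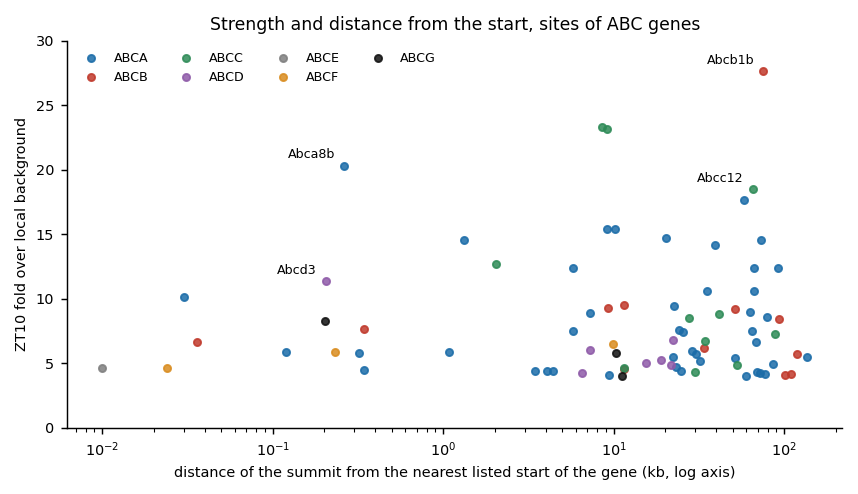
Fold of each ZT10 site of the ABC genes with a listed start, against the distance in kb from the summit to the nearest start of that gene (log axis), coloured by subfamily. Sites shared by neighbouring genes appear for each. Sites past 10-fold run from Abca1 at 30 bp to Abca17 at 91700 bp.

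The reach of 10 kb sets some of these values. The outermost sites counted were those of Abcf1 (9878 bp outside the span, fold 6.49), Abca9 (9292 bp, 4.10) and Abca17 (9134 bp, 15.4). Just beyond it, at 10 to 20 kb, lay 30 more distinct summits around 23 members, 9 of them past 10-fold and some within reach of another member. The nearest of these were 10148 bp from Abca9 (7.08, a site of Abca6) and 10386 bp from Abcc12 (12.8). Among members with no site, Abca12 had a summit of 8.88 at 11.5 kb, Abcf3 one of 5.20 at 12.7 kb and Abca14 one of 12.2 at 14.2 kb, the last inside the gene Crym.

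No ABC member site was found at ZT22. Of the 100 member sites of ZT10, 0 were overlapped by a ZT22 peak, and 0 of the 22 of at least 10-fold. Over all ZT10 peaks 24 of 27929 (0.0859%) were overlapped, and 22 of 7536 (0.292%) of those of at least 10-fold. The strongest member sites fell in a range where such overlap was rare: 4 of 3427 ZT10 peaks with folds of 14 to 30 (0.117%) were overlapped. Within 1 Mb of a member there was a single ZT22 peak, 844 kb from Abcg3, with a fold of 4.74. The authors' deposited table for ZT22 names no peak below a fold of 4.08 or a −log10 q of 3.35, so weaker binding at ZT22 would not be seen, and the list cannot tell it from none.

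The 5 canalicular exporter genes that the rule left out stood above most members. All 5 had a ZT10 site of at least 10-fold: Abcb11, the bile salt pump, at 31.2, Abcc2 at 20.9, the adjoining sterol exporters Abcg5 and Abcg8 at 19.6, and Abcb4 at 18.3. Of the 45 members, only Abcb1b, Abcc4, Abca8b and Abcc12 reached the lowest of these values. The rule left these 5 genes out, and the difference from the members was not tested.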

How the data were processed

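ChIP-seq peak lists of REV-ERBα in mouse liver were used, 1 for ZT10 and 1 for ZT22, each made by the authors from 4 pooled samples, per the labels. Nuclei were fixed with formaldehyde and EGS, chromatin was sonicated, and libraries were made with Tn5, per the labels. Tools credited in the submitters' processing notes, without role or order, are BWA 0.7.17, MACS2 2.1.2, SAMtools 1.9, Picard 2.18.12, cutadapt 2.3, deepTools 3.3.0 and bcl2fastq 2.17, and the build is mm10. The control behind the peak calls is not stated in the sources used here. The deposited fold is a ratio of summit to local background, per peak. The deposited −log10 p and −log10 q are the peak caller's, and the deposited score, 10 times the −log10 q, was not used. The deposited offset from peak start to summit placed each summit.

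Summits were assigned to genes by script (Python with pandas 2.3.3, numpy 2.4.6 and scipy 1.17.1). Fragment numbers at summits came from the fold (pseudocount 1) and the Poisson −log10 p together, and all 100 member sites came out within 0.1 of a whole number. Intervals from them cover counting error only. Both steps were tested on simulated data. Spans came from RefSeq. Starts were listed for 33 members, and not for 12, among them Abca6, Abcb8, Abcc1, Abcc3, Abcc6, Abcc8, Abcd2, Abcd4, Abcg1 and Abcg4. The values of 2 members are in the counts but not reported here one by one. The members, role lists, thresholds and the rule for described genes (the 10 strongest, the strongest and the most bound of each subfamily) were chosen with earlier results of these data known. Alternatives covered the reach, the peak threshold, the assignment of summits and the fold that counts as strong.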

Additional observations from a re-analysis of the deposited data

How the results depend on the processing

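The count of 32 members with a ZT10 site ranged from 22 to 37 over 10 alternatives, always within 1.5 times. The 22 came with a fold of at least 6, where 37.9% of all genes had a site. The 37 came with a reach of 50 kb, where 70.5% did. Counting only summits within 10 kb of either end gave 26 of 45, beside 51.4% of all genes, a smaller excess than in the main count. The ZT22 count was 0 in each of its 4 alternatives. The 100 sites became 192 with a reach of 50 kb and 53 with a fold of at least 6. The 13 members past 10-fold became 22 with a reach of 50 kb, where 35.3% of all genes passed, and 8 with a threshold of 15, where 8.78% did. The median strongest fold of 8.33 ranged from 7.93 to 11.04. Inside spans only, 29 members had a site: Abca5, Abcd4 and Abcf1 had none, and the strongest fold moved beyond its counting interval at 7 others, among them Abcb1b (9.20) and Abcc12 (8.51). A reach of 50 kb moved it at 13, for example to 23.6 at Abca2, 22.4 at Abcb9 and 21.9 at Abca5, these 3 through sites nearer to another gene. At Abca4 (19.4), Abcd3 (16.7) and Abca8a (25.1) the nearest gene to the stronger site was the member itself. The percentile of the strongest site by −log10 q in place of fold moved only at Abcc4, from 97.4 to 98.1. No paired analysis was possible because each time is 1 pooled list, and for the same reason no sample could be left out. The lists hold no fold below 4.006 at ZT10 or 4.08 at ZT22, so weaker binding is not seen, and whether depth or a threshold sets that floor was not tested.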

Other observations

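Among 22 genes that regulate or partner ABC transporters, 20 had a ZT10 site (90.9%, beside 54.5% of all genes) and 13 had one of at least 10-fold (59.1%, beside 19.1%), and this list was not tested. Scarb1, the receptor that takes up cholesterol from high-density lipoprotein, had a fold of 41.7, and Srebf2, the activator of sterol synthesis, 32.8. The xenobiotic receptors that induce Abcb1 and Abcc genes had like values, 21.6 for Nr1i2 and 21.7 for Nr1i3, and Nfe2l2, the oxidative stress activator, had 20.1. The nuclear receptors Ppara and Nr1h4 had 24.7 and 17.4. The liver X receptors, which induce Abca1 and Abcg1, were lower, 6.99 at Nr1h3 and 4.83 at Nr1h2, as were their partners Rxra (8.003) and Rxrb (6.21), the aryl hydrocarbon receptor gene Ahr (8.55) and Pex19 (7.36), which carries Abcd proteins to peroxisomes. Apoa1, the acceptor of lipid from Abca1, had 16.4, and Hbs1l, a partner of Abce1 in ribosome rescue, 23.1. No site lay at Mylip or at Kcnj11, the channel subunit that pairs with Abcc8, while Kcnj8, which pairs with Abcc9, had 1 of 6.21.

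Among ABC genes of other symbols, the peptide transporter gene Tap1 had a fold of 7.22, and Tap2 and Cftr had no site. Solute carrier genes, the other large class of membrane transporters, had a site at 239 of 375 (63.7%) and one of at least 10-fold at 121 (32.3%), beside 71.1% and 28.9% of ABC members. Their median span was 28.7 kb, beside 67.5 kb for ABC members, and the shares were not matched for span. The ABC shares also leave out the 5 canalicular genes, all of which had a site of at least 10-fold, while the solute carrier list was not trimmed.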
